A study of Homo sapiens with 20 samples.

Results

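The oxidative phosphorylation subunits are the nuclear-encoded proteins that build the respiratory chain and the ATP synthase of mitochondria. They were taken here as every array probe set whose gene symbol begins with NDUFA, NDUFB, NDUFC, NDUFS or NDUFV and a digit, is SDHA, SDHB, SDHC, SDHD or CYC1, begins with UQCR or ATP5, or begins with COX and a digit between 4 and 8, without the assembly factors named NDUFAF. The rule found 79 symbols, each with a single probe set, among 17687 genes tested. One of them, NDUFV1-DT, is a long non-coding RNA that runs divergently from NDUFV1, and it was left out, so that 78 protein-coding subunits were described. They fall into 31 subunits of complex I, 3 of complex II, 9 of complex III, 17 of complex IV and 18 of complex V. A further 10 symbols that fit the rule in the current gene table, among them SDHB, NDUFS1 and UQCRFS1, were not analysed here.

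Complex I takes electrons from NADH and complex II takes them from succinate, and both pass them to coenzyme Q. Complex III hands them on to cytochrome c and complex IV, cytochrome c oxidase, hands them to oxygen, while complexes I, III and IV pump protons whose return drives complex V, the ATP synthase. Muscle uses its own isoforms of some complex IV subunits, and a set of nuclear transcription factors, NRF1 and the ETS factor GABP among them, is known for binding the promoters of many subunit genes.

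The study asked what happens to gene expression in rhabdomyosarcoma, a childhood tumour of the muscle lineage, when KDM4 enzymes are lost or blocked. KDM4 enzymes are histone H3 lysine demethylases, and QC6352 is a small-molecule inhibitor of the family. Expression was measured as log2 signal on 20 Clariom S human arrays, which hold probe sets for most coding genes. Both lines, Rh41 and Rh30, come from alveolar rhabdomyosarcoma and carry the PAX3-FOXO1 fusion.

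The arrays form 8 groups by sample title, 1 per condition and line. Rh41 and Rh30 cells each received 200 nM QC6352 for 48 h or the solvent DMSO for 48 h, with 3 arrays in each of these groups. Other Rh30 cells were harvested 72 h after knockdown. A short hairpin RNA targeted KDM4B, with a control hairpin beside it, and a small interfering RNA (siRNA) targeted KDM4C, with its own control siRNA, and each of these 4 groups has 2 arrays. The labels call the arrays of a group biological replicates, and do not say how many hairpins or siRNAs were used per gene. The number of arrays limits the precision, and in bulk RNA fewer cells of a kind and less RNA per cell cannot be told apart.

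The labels of 10 Rh30 arrays, those titled DMSO, QC6352, siControl and siKDM4C, contradict each other, because the submitters' own sample name assigns them to another group than the title does. In the 3 Rh30 arrays with QC6352 in the title NDUFV3 read 8.19, 8.66 and 8.42 log2, and it read between 9.39 and 10.36 in every other Rh30 array. The title of KDM4C siRNA array 2 also reads shRNA where its source name reads siRNA. By sample name the 3 arrays titled QC6352 are a control siRNA array and both KDM4C siRNA arrays. All values that follow use the titles, and with groups by sample name 0 subunits were called higher and 0 lower with QC6352 in Rh30, beside 0.458% and 0.0452% of all genes. KDM4B was at 6.01 and 6.15 log2 with its hairpin, against 6.74 and 7.30 with the control hairpin (log2 difference -0.94, limma adjusted p = 0.0120), and the labels of these 4 arrays do not conflict. KDM4C was at 6.25 and 6.32 with its siRNA, against 6.48 and 6.54 with the control siRNA. This difference of -0.23 did not pass the test (limma adjusted p = 0.651). All these levels of KDM4B and KDM4C lay under the 95th percentile of the background probe sets on their arrays, so both knockdowns are measured less well.

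Array medians over all probe sets were 7.22 to 7.25 log2 in Rh41, 6.95 to 6.99 in the Rh30 arrays titled QC6352, DMSO or with a hairpin, and 6.72 to 6.75 in the 4 siRNA arrays. The 95th percentile of 23 background probe sets lay between 6.94 and 7.94 log2 per array, and a group mean under that percentile is called near background. Of the 79 symbols 17 were near background in at least 1 group, NDUFV1-DT among them. Of 8 markers of the muscle lineage MYOD1, MYOG, DES, CHRNA1 and FGFR4 were above background in every group, and CHRNG, PAX7 and TFAP2B were near background in 5, 6 and 6 of the 8 groups. The 15 markers of other cells cover blood, vessel, epithelial and connective tissue types, and 10 of them were near background in all 8 groups, among them EPCAM, PTPRC and CDH5. The epithelial keratin gene KRT8 was above background in every group, and KRT19, PECAM1, PDGFRA and COL1A1 in some.

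Among the 4 treatment comparisons QC6352 in Rh30 had the highest number of subunits called. Of 78 subunits 25 fell and 6 rose (limma, adjusted p under 0.05 over all genes). That is 32.1% lower and 7.69% higher, beside 16.5% lower and 19.9% higher among all genes tested. The median log2 difference was -0.13 over the subunits and 0.05 over all genes. All 3 drug arrays lay below all 3 DMSO arrays for 32 subunits and above them for 15, where 19.5% and 25% of all genes did so. Of the complex I subunits 11 of 31 fell and 3 rose, of complex II 1 of 3 fell, of complex III 4 of 9 fell, of complex IV 3 of 17 fell and 2 rose, and of complex V 6 of 18 fell and 1 rose. The complex medians were -0.14, -0.18, -0.23, 0.01 and -0.13 log2, in the order I to V. Complex IV was thus the complex whose median was closest to that of all genes, although the complexes were not tested against each other.

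**Figure D1:**
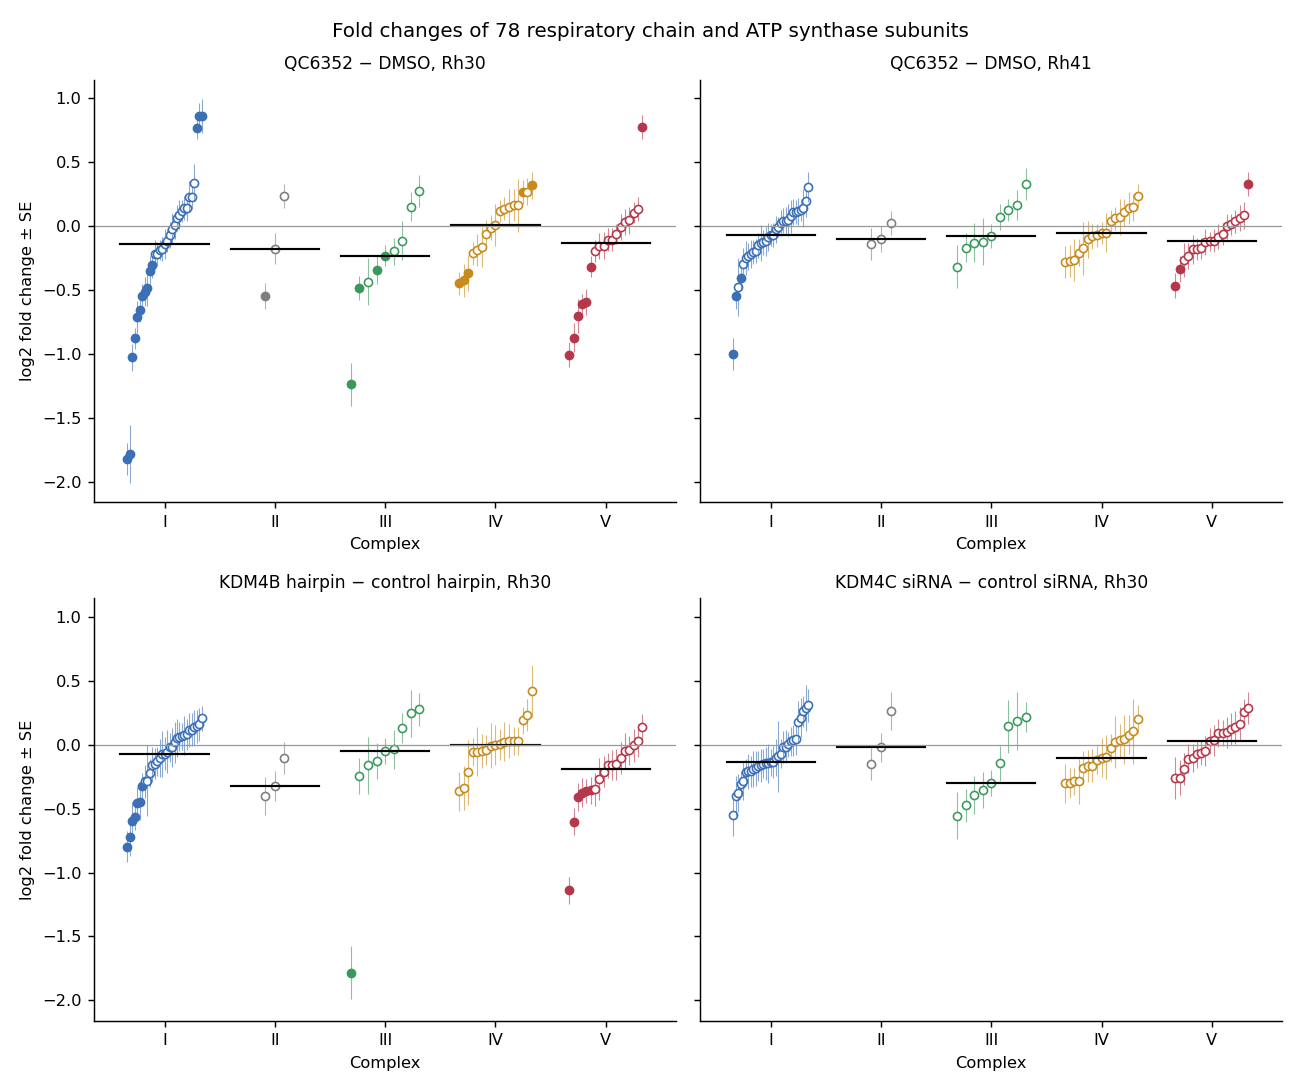
Log2 difference between treated and control groups for each of the 78 subunits, ordered by size within complexes I to V, in the 4 treatment comparisons, with points at the estimate, thin lines for the standard error, filled points for an adjusted p under 0.05 and black bars for complex medians. In Rh30 with QC6352 the filled points run down to -1.82, with the KDM4B hairpin they run down to -1.78, in Rh41 they stop at -0.999, and with the KDM4C siRNA no point is filled.

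In complex I the largest falls were in NDUFV3 and NDUFV2, subunits of the module that oxidises NADH, while the module did not fall as a whole. NDUFV3, a small accessory subunit of that module, was at 8.19, 8.66 and 8.42 log2 in QC6352-treated Rh30 cells, against 10.20, 10.18 and 10.36 in DMSO. Every drug array lay more than 1 log2 unit under every DMSO array, and the difference was -1.82 ± 0.12 (SE, n = 3 and 3, limma adjusted p = 1.24e-09). NDUFV2, the core subunit of this module that carries an iron-sulfur cluster, was at 7.46, 7.08 and 6.42 with QC6352, against 9.19, 8.55 and 8.57 with DMSO. The groups did not overlap, the drug arrays spread over about 1 log2 unit with their mean near background, and the difference was -1.78 ± 0.23 (adjusted p = 3.70e-06). NDUFV1, the subunit of the same module that binds NADH, did not pass the test (0.09 ± 0.11).

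Accessory subunits of complex I moved in both directions. NDUFB4, of the membrane arm, was at 8.72, 8.77 and 8.59 with QC6352 and at 9.68, 9.67 and 9.82 with DMSO (-1.03 ± 0.10, adjusted p = 1.88e-07). NDUFA6, a subunit of the matrix arm with an LYR motif, was at 9.93, 9.97 and 9.86 with QC6352 and at 10.88, 10.74 and 10.78 with DMSO (-0.88 ± 0.08, adjusted p = 5.96e-08). Both genes held their arrays within 0.3 log2 units in each group. NDUFS4, whose loss in humans causes a complex I deficiency, fell by 0.71 ± 0.12 to a mean near background, and NDUFB1, NDUFB5, NDUFB3, NDUFB7, NDUFA11 and NDUFA8 fell by 0.65, 0.55, 0.52, 0.49, 0.36 and 0.30. NDUFA11 was called in 2, NDUFA8 in 3 and NDUFB7 in 5 of 6 fits that left out 1 array. Of the 31 subunits 3 rose. NDUFB10, a membrane arm subunit, was at 10.33, 10.48 and 10.52 with QC6352 and at 9.63, 9.60 and 9.53 with DMSO (0.86 ± 0.11, adjusted p = 2.51e-06). NDUFC1 rose by 0.86 ± 0.13, with its DMSO level near background, and NDUFA2 rose by 0.77 ± 0.09.

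Complexes II and III showed falls only among the members called. SDHC, a membrane anchor of succinate dehydrogenase, was at 8.38, 8.63 and 8.53 log2 with QC6352, against 8.99, 9.02 and 9.17 with DMSO, with no overlap (-0.55 ± 0.10, adjusted p = 2.60e-04). The catalytic flavoprotein SDHA (0.23 ± 0.09) and the second anchor SDHD (-0.18 ± 0.12) did not pass the test. UQCRB, the complex III subunit beside the coenzyme Q site, was at 6.34, 6.53 and 6.21 with QC6352, against 7.88, 7.33 and 7.58 with DMSO (-1.24 ± 0.17, adjusted p = 9.14e-06), and the Rh30 groups were near background for this gene in both conditions. The hinge protein gene UQCRH fell by 0.49 ± 0.10, the cytochrome c1 gene CYC1 by 0.34 ± 0.11 and the core protein gene UQCRC2 by 0.23 ± 0.08. Of 6 fits that left out 1 array, CYC1 was called in 3 and UQCRC2 in 2. UQCRHL, a near copy of UQCRH whose probes may also take up UQCRH transcripts, was near background in all 8 groups and did not pass (-0.44 ± 0.18).

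Complex IV changes were small. COX7A2L, a relative of a complex IV subunit that joins complexes into supercomplexes, fell by 0.45 ± 0.09 (adjusted p = 5.09e-04), at 10.28, 10.40 and 10.13 with QC6352 and at 10.77, 10.71 and 10.69 with DMSO. The small subunit genes COX7B and COX7C fell by 0.43 ± 0.13 and 0.37 ± 0.14, and COX6C and COX8A rose by 0.32 ± 0.11 and 0.26 ± 0.09. The adjusted p-values of these 4 lay between 0.0113 and 0.0491, and each lost its call when some single arrays were left out. Of the 6 tissue isoforms, COX4I2, COX6A2, COX6B2, COX7A1, COX7B2 and COX8C, 0 were called here (their differences ran between -0.16 and 0.27), and all 6 were near background in Rh30 with QC6352 and with DMSO. Their widely expressed counterparts COX4I1, COX6A1 and COX6B1, which were above background in every group, had differences of -0.06, 0.13 and -0.01, and COX7A2 one of -0.19.

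In complex V 4 of the 6 falls were in the peripheral stalk and the proton-carrying ring. ATP5PO, which joins the peripheral stalk to the catalytic head, was at 10.36, 10.62 and 10.35 log2 with QC6352, against 11.47, 11.38 and 11.50 with DMSO (-1.01 ± 0.10, adjusted p = 1.43e-07). ATP5PB, the main rod of that stalk, was at 10.67, 10.67 and 10.63 with QC6352, against 11.31, 11.22 and 11.27 with DMSO (-0.61 ± 0.08, adjusted p = 5.59e-06). The genes ATP5MC2 and ATP5MC3, which encode the same ring protein as ATP5MC1, fell by 0.87 ± 0.11 and 0.59 ± 0.10, whereas ATP5MC1 did not pass (-0.11 ± 0.09). ATP5F1A, the non-catalytic alpha subunit of the head, fell by 0.70 ± 0.13 and the small membrane subunit ATP5MJ by 0.32 ± 0.08.

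ATP5IF1 was the only complex V gene that rose. It encodes the inhibitor that stops the enzyme from splitting ATP when the proton gradient collapses. Its level was 9.96, 10.29 and 10.25 log2 with QC6352, against 9.32, 9.35 and 9.52 with DMSO, with no overlap (0.77 ± 0.10, adjusted p = 2.63e-06).

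In Rh41 cells QC6352 moved fewer subunits. Of 78 subunits 5 fell and 1 rose, which is 6.41% and 1.28%, beside 8.8% lower and 10.9% higher (19.7% in either direction) among all genes. The share lower is therefore near that of all genes. The median was -0.08 log2 over the subunits and 0.02 over all genes. The drug arrays lay below the DMSO arrays without overlap for 28 subunits and above them for 8, where 18.3% and 22.9% of all genes did so. All 6 subunits called in Rh41 had been called in the same direction in Rh30, and 0 were called in opposite directions. The 5 lowered in Rh41 were thus all lowered in Rh30 and made up 20% of the 25 lowered there, whereas over all genes the share was 62.1% of those lowered in Rh41 and 33.2% of those lowered in Rh30. Complexes II, III and IV had 0 calls in Rh41 (0, 1 and 3 subunits had an unadjusted p under 0.05).

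The 6 subunits called in both lines were NDUFV3, NDUFB4 and NDUFA6 of complex I and ATP5PO, ATP5MC3 and ATP5IF1 of complex V. NDUFV3 was at 9.37, 9.39 and 9.24 log2 in Rh41 with QC6352, against 10.36, 10.35 and 10.29 with DMSO (-0.999 ± 0.12, adjusted p = 1.17e-05). NDUFB4 was at 8.21, 8.50 and 8.55 with QC6352, against 8.94, 9.03 and 8.93 with DMSO (-0.55 ± 0.10, adjusted p = 7.50e-04). In both genes the drug arrays were all below the DMSO arrays. NDUFA6 was at 10.53, 10.59 and 10.60 with QC6352, against 11.01, 10.97 and 10.98 with DMSO (-0.41 ± 0.08, adjusted p = 0.00113). ATP5PO was at 10.87, 11.07 and 11.09 with QC6352, against 11.50, 11.57 and 11.36 with DMSO (-0.47 ± 0.10, adjusted p = 0.00202). ATP5MC3 fell by 0.34 ± 0.10 (adjusted p = 0.0258), a call lost in 4 of 6 fits that left out 1 array. ATP5IF1 was at 10.06, 10.05 and 10.07 with QC6352, against 9.70, 9.73 and 9.77 with DMSO (0.33 ± 0.10, adjusted p = 0.0194). Its groups stood clearly apart, yet the call was lost in 5 of 6 fits that left out 1 array.

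**Figure D2:**
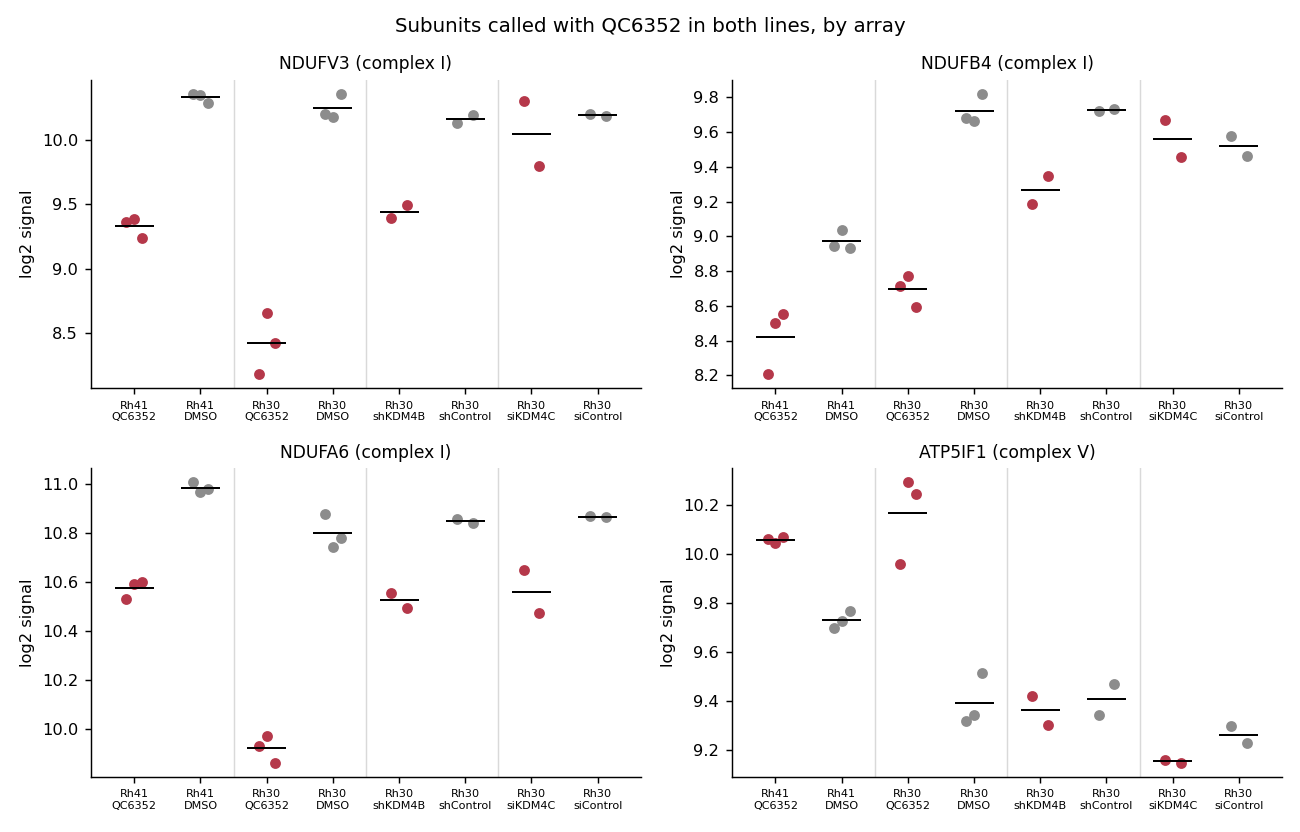
Log2 signal on each array for 4 of the 6 subunits called with QC6352 in both lines, with red points for treated groups, grey points for their controls and black bars for group means. For NDUFV3, NDUFB4 and NDUFA6 the QC6352 arrays lie below the DMSO arrays in Rh41 and in Rh30 and the KDM4B hairpin arrays lie below the control hairpin arrays, while for ATP5IF1 the QC6352 arrays lie above the DMSO arrays in both lines.

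The responses of the lines were then set against each other in 1 contrast, the response in Rh41 minus the response in Rh30. This difference was called positive for 15 subunits and negative for 4, which is 19.2% and 5.13%, beside 10.5% and 9.45% of all genes. All 25 subunits that fell in Rh30 had a smaller fall, or a rise, in Rh41, and 22 of them had a negative sign there. These 25 were picked by their calls in Rh30, which favours a smaller fall in Rh41. Over all genes, too, fewer were called lower in Rh41 (8.8%) than in Rh30 (16.5%). Of the 20 subunits that fell in Rh30 without a call in Rh41 the difference was called for 11, so for the other 9 the lines were not shown to differ. Of the 6 called in both lines it was called for 5, with ATP5MC3 as the exception.

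The largest positive differences were in NDUFV2 (1.31 ± 0.32, adjusted p = 0.00648), UQCRB (0.92 ± 0.24, adjusted p = 0.0101), NDUFV3 (0.82 ± 0.18, adjusted p = 0.00239) and NDUFS4 (0.76 ± 0.17, adjusted p = 0.00427). NDUFS4 was at 8.90, 8.97 and 9.01 in Rh41 with QC6352 and at 8.99, 8.96 and 8.80 with DMSO, so its groups overlapped in that line. The negative differences were in NDUFC1 (-1.11 ± 0.19), NDUFB10 (-0.89 ± 0.15), NDUFA2 (-0.66 ± 0.13) and ATP5IF1 (-0.44 ± 0.13). NDUFB10, which rose in Rh30, was at 9.34, 9.64 and 9.59 in Rh41 with QC6352 and at 9.62, 9.57 and 9.46 with DMSO, with overlapping groups. With 1 array left out the number of positive differences lay between 8 and 14. It was 8 without Rh41 QC6352 array 3, and 9 without Rh41 DMSO array 1, Rh41 DMSO array 3 or Rh30 DMSO array 3.

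The KDM4B hairpin lowered 14 of 78 subunits in Rh30 and raised 0, which is 17.9% and 0%, beside 6.31% lower and 5.26% higher among all genes. The median was -0.07 log2 over the subunits and 0.03 over all genes. Both hairpin arrays lay below both control arrays for 31 subunits and above them for 11, where 22.9% and 28.7% of all genes did so. The falls were 7 of 31 subunits in complex I, 1 of 9 in complex III and 6 of 18 in complex V, and complexes II and IV had 0 calls (2 of 3 and 1 of 17 had an unadjusted p under 0.05). With 1 array left out the count lay between 6 and 11, and it was 6 without control hairpin array 1, 6 without KDM4B hairpin array 1 and 7 without KDM4B hairpin array 2. EBayes with trend and robust called 17, SDHA and SDHD of complex II among them, beside 7.78% of all genes lower. Without the lowest 40% of probe sets 16 were called, SDHA among them, beside 12.9% of the genes tested. A fit of the 4 hairpin arrays alone called 5, beside 3% of all genes lower. One with the replicate number as a block called 9, beside 5.16% of all genes lower. The fits that left out 1 array also called fewer of all genes lower than the main fit did. Each fit without 1 hairpin or control array leaves 1 array in that group and takes the spread from the other groups. ATP5F1C, ATP5PF, NDUFB1, NDUFV3 and UQCRB were called in each of these fits, and ATP5F1B, ATP5F1D, NDUFA6 and NDUFB4 in 0 of the 4 that left out 1 array.

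UQCRB had the largest difference among the subunits with the hairpin, at levels whose means were near background in both groups. It was at 6.03 and 5.87 log2 with the hairpin, against 8.16 and 7.30 with the control hairpin (-1.78 ± 0.21, n = 2 and 2, limma adjusted p = 1.38e-05). The control arrays differed from each other by nearly 1 log2 unit. In complex I NDUFB1, of the membrane arm, was at 9.74 and 9.79 with the hairpin, against 10.60 and 10.53 with the control (-0.80 ± 0.12, adjusted p = 2.33e-04). NDUFV3 was at 9.39 and 9.49 with the hairpin, against 10.13 and 10.19 with the control (-0.72 ± 0.15, adjusted p = 0.00378). NDUFB2, NDUFB9, NDUFB4, NDUFB3 and NDUFA6 fell by 0.59, 0.56, 0.46, 0.45 and 0.32. Of the 7 complex I subunits called, 5 are NDUFB subunits, which belong to the membrane arm.

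In complex V 6 subunits were called lower with the hairpin, of which ATP5F1C and ATP5PF were called in every fit that left out 1 hairpin or control array. With hairpin array 1, hairpin array 2 or control array 1 left out these 2 were the only complex V calls. ATP5F1C, the gamma subunit that turns inside the head, was at 9.67 and 9.69 log2 with the hairpin, against 10.84 and 10.80 with the control (-1.14 ± 0.11, limma adjusted p = 1.95e-06). Its replicates lay within 0.1 log2 units in both groups. ATP5PF, the coupling subunit of the peripheral stalk, was at 11.85 and 11.88 with the hairpin, against 12.53 and 12.40 with the control (-0.60 ± 0.11, adjusted p = 0.00109). ATP5F1B, the catalytic beta subunit, was at 12.04 and 11.90 with the hairpin, against 12.36 and 12.30 with the control (-0.36 ± 0.10, adjusted p = 0.0275). ATP5MC1, ATP5F1D and ATP5MF, a ring gene, the delta subunit of the head and a small membrane subunit, fell by 0.41, 0.38 and 0.36. The readthrough symbol ATP5MF-PTCD1, whose probes can share transcripts with ATP5MF, did not pass (-0.16 ± 0.12).

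The drug and the hairpin were then compared within Rh30, where they have separate controls but differ in time, 48 h for the drug and 72 h for the hairpin. The subunits lowered by both were NDUFA6, NDUFB1, NDUFB3, NDUFB4, NDUFV3 and UQCRB, which is 24% of the 25 lowered by the drug and 42.9% of the 14 lowered by the hairpin. Over all genes 428 were lowered by both, 14.7% of those lowered by the drug and 38.4% of those lowered by the hairpin, so the subunits' share of the hairpin calls is near that of all genes. In complex I 5 subunits were shared, 45.5% of those lowered by the drug and 71.4% of those lowered by the hairpin. In complex V each treatment lowered 6 subunits and 0 were shared in the main fit. ATP5F1C was called lower with both treatments by eBayes with trend and robust, and also without the lowest 40% of probe sets. Without control hairpin array 1, hairpin array 1 or hairpin array 2 the shared subunits were NDUFB1, NDUFV3 and UQCRB, with 2 in complex I, and the hairpin lowered 2 in complex V, again with 0 shared. NDUFA6, NDUFB4 and NDUFV3 were the subunits lowered by the drug in both lines and by the hairpin, and of these NDUFV3 alone kept its hairpin call in the fits that left out 1 hairpin or control array.

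For complex V the difference itself, drug response minus hairpin response, was tested. Over all 18 subunits it was called positive for 5 and negative for 5 (27.8% each), beside 13% and 11.4% of all genes. It was called for 5 of the 6 subunits lowered by the drug alone and for 4 of the 6 lowered by the hairpin alone. Those subunits were picked by their calls in the same responses, which favours a called difference. Without KDM4B hairpin array 2 these counts were 2 and 3, and without KDM4B hairpin array 1 they were 5 and 2. ATP5MC2 had -0.87 with the drug and -0.05 with the hairpin (difference -0.83 ± 0.18, adjusted p = 0.00167), and ATP5PO had -1.01 and -0.21 in the same order (difference -0.79 ± 0.16, adjusted p = 8.39e-04). ATP5F1C had -0.20 with the drug and -1.14 with the hairpin (difference 0.94 ± 0.14, adjusted p = 5.07e-05). The 3 head subunits lowered by the hairpin, ATP5F1B, ATP5F1C and ATP5F1D, were each called in this contrast, and so were both ring genes lowered by the drug, ATP5MC2 and ATP5MC3. ATP5F1A was the drug-lowered subunit without such a call (-0.44 ± 0.21), and ATP5MC1 and ATP5MF were those lowered by the hairpin.

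**Figure D3:**
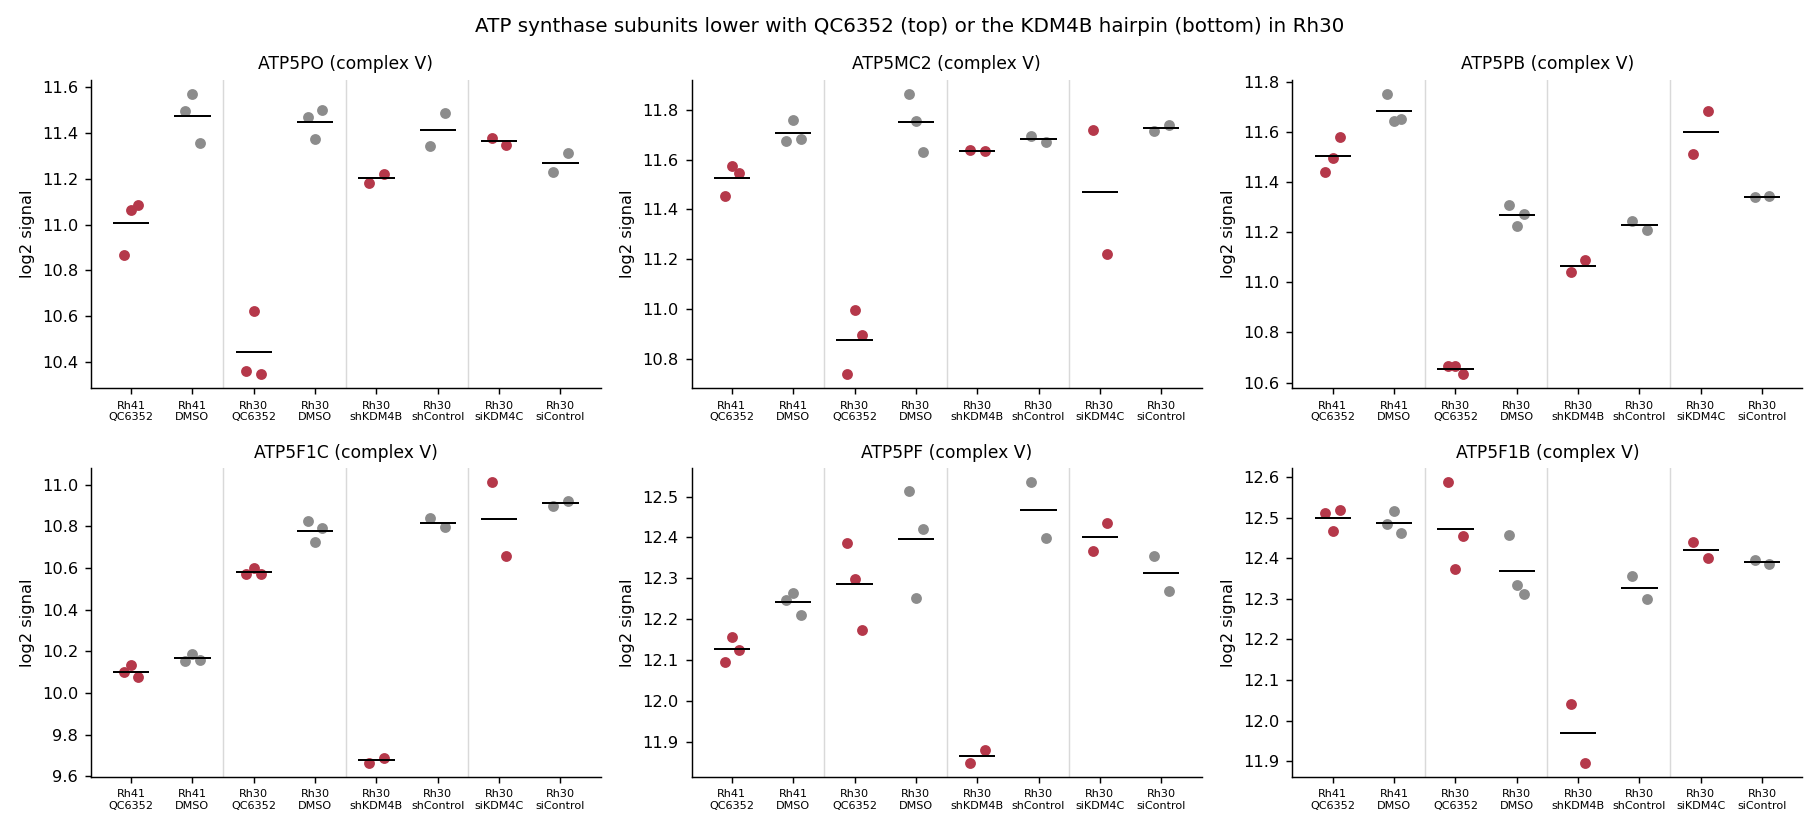
Log2 signal on each array for 6 ATP synthase subunits, 3 lowered by QC6352 in Rh30 (top row) and 3 lowered by the KDM4B hairpin (bottom row), with red points for treated groups, grey points for controls and black bars for group means. ATP5PO, ATP5MC2 and ATP5PB drop in the Rh30 QC6352 arrays (differences of -1.01, -0.87 and -0.61 log2), and ATP5F1C, ATP5PF and ATP5F1B drop in the hairpin arrays (-1.14, -0.60 and -0.36).

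Over all 78 subunits this contrast was called positive for 10 and negative for 14, which is 12.8% and 17.9%, beside 13% and 11.4% of all genes. Without KDM4B hairpin array 2 the negative count was 7. Complex I gave 4 positive and 6 negative calls, led by NDUFA2 (0.99 ± 0.14) and NDUFB10 (0.93 ± 0.17) on one side and NDUFV2 (-1.50 ± 0.36) and NDUFV3 (-1.10 ± 0.20) on the other. NDUFV3 fell under both treatments and fell further with the drug. UQCRB fell more with the hairpin, but this difference did not pass the test (0.54 ± 0.27, adjusted p = 0.167).

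**Figure D4:**
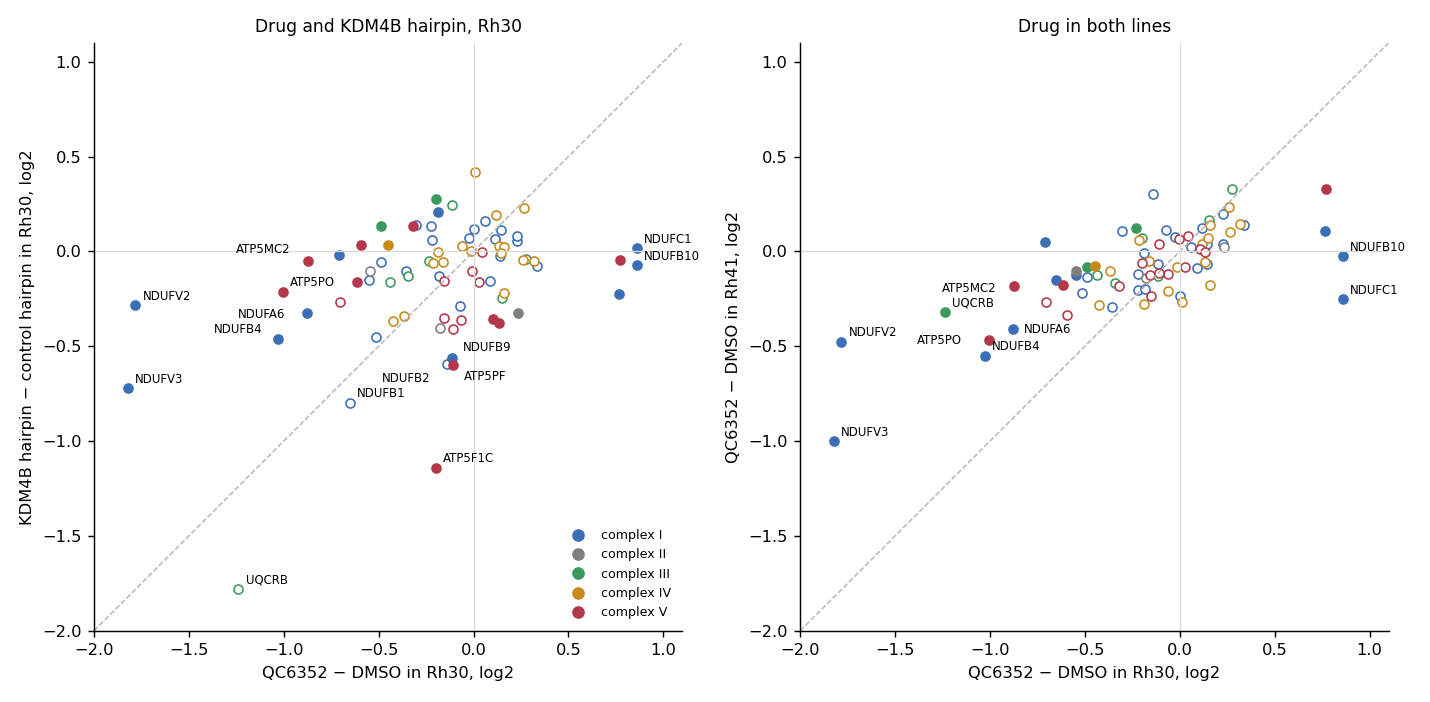
Log2 differences of the 78 subunits, QC6352 against DMSO in Rh30 on the horizontal axis and, on the vertical axis, KDM4B hairpin against control hairpin in Rh30 (left panel) or QC6352 against DMSO in Rh41 (right panel), coloured by complex, with filled points where the difference between the plotted responses had an adjusted p under 0.05 and a dashed line where both are equal. ATP5F1C and ATP5PO lie far from the line on opposite sides in the left panel, and NDUFV3 is the lowest point of the right panel, at -1.82 and -0.999.

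The promoters of 5 subunits are shown to set these groups side by side. NDUFV3, NDUFB4 and NDUFA6 were lowered by the drug in both lines and by the hairpin, ATP5PO by the drug in both lines, and ATP5F1C by the hairpin. Each is the 250 bases before the start of the gene, 5′ to 3′ on the gene's strand, from RefSeq on GRCh38.p14, and the capitals mark the NRF1 core, GCATGCG or its reverse complement CGCATGC. In NDUFB4 and ATP5F1C the 2 strands' matches overlap in 1 run.
NDUFV3 (chr21:42893059-42893308, plus strand): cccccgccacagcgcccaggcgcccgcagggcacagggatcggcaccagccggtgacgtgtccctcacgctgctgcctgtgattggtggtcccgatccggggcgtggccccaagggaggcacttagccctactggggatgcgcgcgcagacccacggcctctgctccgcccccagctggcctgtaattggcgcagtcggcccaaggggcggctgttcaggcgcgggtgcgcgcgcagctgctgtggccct
NDUFB4 (chr3:120596086-120596335, plus strand): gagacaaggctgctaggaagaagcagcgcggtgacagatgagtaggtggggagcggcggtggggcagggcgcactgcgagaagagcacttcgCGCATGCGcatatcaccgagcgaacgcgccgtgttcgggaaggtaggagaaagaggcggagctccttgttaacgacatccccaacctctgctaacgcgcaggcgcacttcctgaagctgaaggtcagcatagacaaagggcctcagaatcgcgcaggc
NDUFA6 (chr22:42090773-42091022, minus strand): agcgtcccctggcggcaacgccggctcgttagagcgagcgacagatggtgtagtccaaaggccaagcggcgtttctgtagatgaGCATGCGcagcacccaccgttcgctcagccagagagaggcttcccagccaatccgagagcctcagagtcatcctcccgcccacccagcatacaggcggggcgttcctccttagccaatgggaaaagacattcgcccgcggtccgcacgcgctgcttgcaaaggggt
ATP5PO (chr21:33915805-33916054, minus strand): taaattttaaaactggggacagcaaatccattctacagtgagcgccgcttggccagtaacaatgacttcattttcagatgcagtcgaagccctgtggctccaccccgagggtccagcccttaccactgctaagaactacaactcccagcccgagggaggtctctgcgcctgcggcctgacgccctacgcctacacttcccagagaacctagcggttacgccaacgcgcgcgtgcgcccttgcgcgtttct
ATP5F1C (chr10:7787927-7788176, plus strand): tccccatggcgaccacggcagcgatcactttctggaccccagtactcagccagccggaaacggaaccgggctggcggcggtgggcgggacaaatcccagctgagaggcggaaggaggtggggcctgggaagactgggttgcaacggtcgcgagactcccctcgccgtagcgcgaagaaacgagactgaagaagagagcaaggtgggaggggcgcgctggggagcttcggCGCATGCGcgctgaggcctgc

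The letters of the NRF1 core stood in the windows of NDUFB4, NDUFA6 and ATP5F1C, and not in those of NDUFV3 and ATP5PO. Promoters were found for 62 of the 78 subunits. The core, on either strand, stood in 12 of these 62 windows (19.4%), beside 4.16% of the windows of 27305 genes. Those 27305 genes were not limited to the genes tested here or matched to the subunits. The ETS core CCGGAAG, or CTTCCGG on the other strand, stood in 15 of 62 (24.2%), beside 10.2% of the 27305 genes, and in none of the 5 windows printed. Among subunits called with neither QC6352 in Rh30 nor the hairpin, 7 of 33 windows held the NRF1 core (21.2%) and 10 of 33 the ETS core (30.3%). Among subunits lowered by QC6352 in Rh30 3 of 20 windows held each core (15%). Among those lowered by the hairpin 4 of 9 held the NRF1 core (44.4%) and 1 of 9 the ETS core (11.1%), counts too small to set the groups apart. A match is a run of letters and not evidence of binding.

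With the siRNA against KDM4C 0 of 78 subunits were called higher and 0 lower by limma, beside 0.266% and 0.192% of all genes. At an unadjusted p under 0.05 there were 15 subunits, and eBayes with trend and robust called 5 lower, COX8A, NDUFA6, UQCR10, UQCR11 and UQCRC2. The median was -0.10 log2 over the subunits and 0.02 over all genes. Without KDM4C siRNA array 2, the one whose title reads shRNA, the subunit median was 0.0094, and without array 1 it was -0.12. The negative median thus rested on array 2. The siRNA arrays lay below their controls without overlap for 28 subunits and above them for 15, where 16.5% and 22% of all genes did so. Without KDM4C siRNA array 1, which leaves 1 array in that group and takes the spread from the other groups, there were 12 lower and 1 higher, NDUFB5, beside 3.68% lower and 6.44% higher of all genes.

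The largest difference was in UQCR11, a small complex III subunit, at 9.82 and 9.02 log2 with the KDM4C siRNA, against 9.92 and 10.03 with the control siRNA (-0.56 ± 0.18, adjusted p = 0.166). Array 2 of the siRNA lay far below the other 3, and array 1 lay close to the controls. UQCR10, another small subunit of that complex, was at 9.25 and 9.12 with the siRNA, against 9.57 and 9.75 with the control (-0.47 ± 0.13, adjusted p = 0.0958). NDUFA6, lowered by the drug and the hairpin, was at 10.65 and 10.47 with the siRNA, against 10.87 and 10.86 with the control (-0.31 ± 0.10, adjusted p = 0.155).

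The untreated levels of the lines were compared in DMSO, Rh41 against Rh30, with the reservation that the arrays of the lines differ in overall level. The median gene was 0.19 log2 higher in Rh41. As deposited, 27 of 78 subunits were higher and 21 lower in Rh41, which is 34.6% and 26.9%, beside 40.7% and 16.8% of all genes (57.6% in either direction). The Rh41 arrays lay above the Rh30 arrays without overlap for 34 subunits and below them for 24, where 45.5% and 19.7% of all genes did so. After each array was centred on its median 15 were higher and 36 lower, beside 26.1% and 30.8% of all genes. After quantile normalization 16 were higher and 31 lower, beside 26.9% and 27.8% of all genes. The split thus turns with the scaling for the subunits and for all genes. COX7A1, UQCRB, NDUFC1, NDUFA5, COX8A, NDUFA1, NDUFA9 and NDUFB11, described next, kept their call and sign under both scalings.

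COX7A1, the heart and skeletal muscle isoform of its complex IV subunit, was at 8.67, 8.58 and 8.48 log2 in Rh41 DMSO, against 6.62, 5.99 and 6.27 in Rh30 DMSO (2.28 ± 0.14, adjusted p = 1.30e-10). It was near background in every Rh30 group. UQCRB was at 9.72, 9.60 and 9.65 in Rh41 DMSO, against 7.88, 7.33 and 7.58 in Rh30 DMSO (2.06 ± 0.17, adjusted p = 5.78e-09). UQCRB, which fell under both treatments of Rh30, thus stood far higher in Rh41, where it did not pass the test with QC6352 (-0.32 ± 0.17). NDUFC1 was 1.65 ± 0.13 higher and NDUFA5 1.31 ± 0.15 higher in Rh41.

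COX8A, the widely expressed isoform of the smallest complex IV subunit, was at 10.99, 11.03 and 10.92 in Rh41 DMSO, against 12.09, 12.20 and 12.07 in Rh30 DMSO (-1.14 ± 0.09, adjusted p = 6.26e-09). NDUFA1, needed for the assembly of the complex I membrane arm, was lower in Rh41 (-1.28 ± 0.09), and so were NDUFA9, at the junction of the arms (-1.14 ± 0.08), and NDUFB11 (-0.98 ± 0.10). In complex I 14 of 31 subunits were lower and 8 higher in Rh41 as deposited, and in complex II SDHC and SDHD were higher by 0.37 and 0.39, calls that were lost under both scalings.

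**Figure D5:**
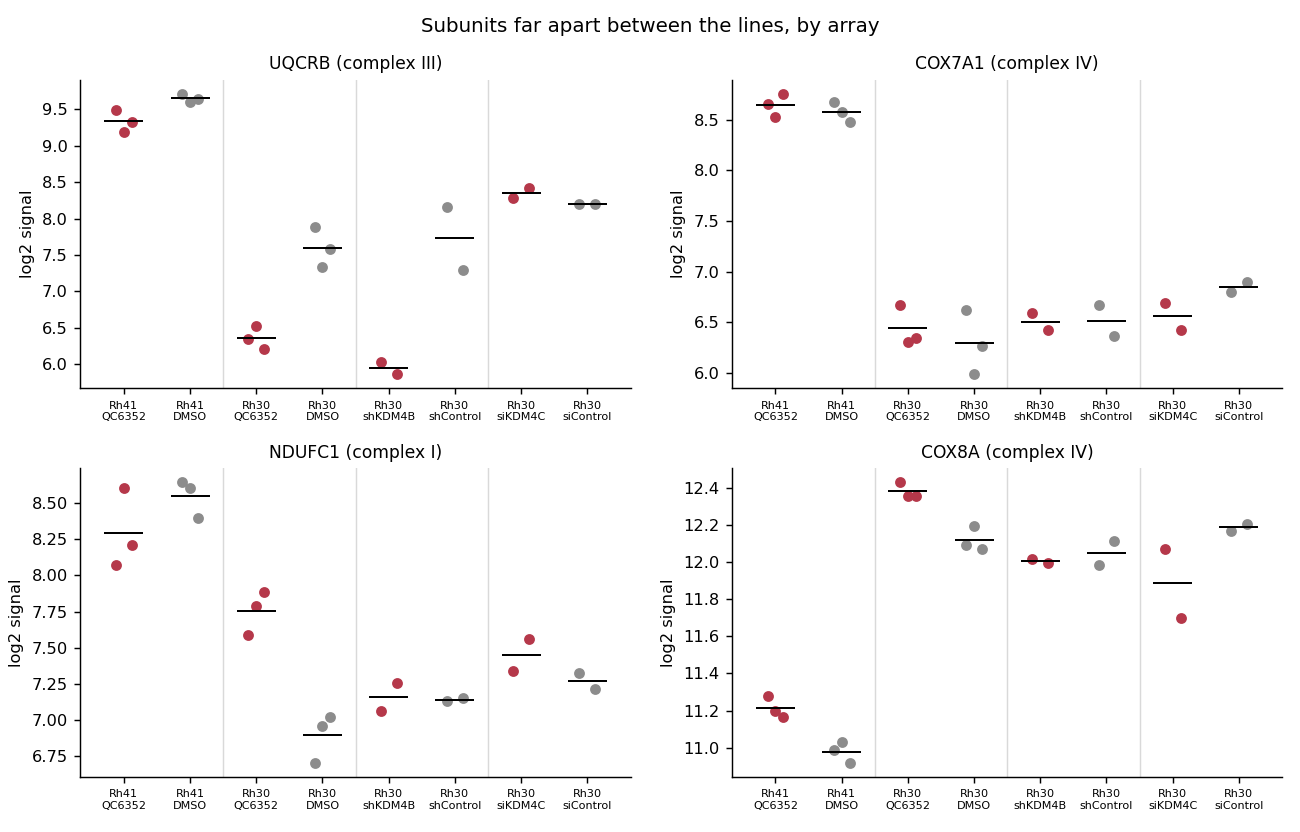
Log2 signal on each array for 4 subunits that differed between the lines in DMSO, with red points for treated groups, grey points for controls and black bars for group means. UQCRB, COX7A1 and NDUFC1 stand higher in Rh41 than in Rh30 in DMSO, by 2.06, 2.28 and 1.65 log2, COX8A stands lower (-1.14), and UQCRB falls to near 6 log2 in Rh30 with QC6352 or the KDM4B hairpin.

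Genes that serve the subunits without belonging to them are set beside them here. Of 57 assembly factors of the respiratory complexes measured, 21 fell and 9 rose in Rh30 and 8 fell and 6 rose in Rh41. That is 36.8% lower and 15.8% higher in Rh30, beside 16.5% and 19.9% of all genes, and 14% and 10.5% in Rh41, beside 8.8% and 10.9% of all genes. COX18, which inserts a mitochondrially encoded subunit of complex IV into the membrane, fell by 1.91 ± 0.22 in Rh30 and fell by 1.55 ± 0.22 in Rh41. NDUFAF2, a complex I assembly factor, fell by 1.81 ± 0.14 in Rh30 to a mean near background, and UQCC5, a complex III assembly factor, rose by 2.03 ± 0.18. For COX18 and UQCC5 both Rh30 means were near background, and so was the COX18 mean in Rh41 with QC6352. With the KDM4B hairpin 5 factors fell and 2 rose (8.77% and 3.51%), near the 6.31% and 5.26% of all genes. The largest of these differences was in COX17, the copper chaperone of complex IV, at 6.13 log2 with the hairpin and 8.06 with the control (-1.93 ± 0.16, adjusted p = 3.58e-07), and its hairpin mean was near background.

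Of 14 nuclear regulators of respiratory genes measured, 3 fell and 2 rose with QC6352 in Rh30 (21.4% and 14.3%), near the 16.5% and 19.9% of all genes. These were GABPB2 (-1.13 ± 0.13), the coactivator PPARGC1B (-0.65 ± 0.15) and the ETS factor GABPA (-0.58 ± 0.15) on one side, and the coactivator PPARGC1A (0.46 ± 0.14) and PPARD (0.25 ± 0.09) on the other. GABPB2, PPARGC1B and PPARGC1A were near background in Rh30 with QC6352 and with DMSO, and GABPA was so with QC6352. GABPB2, a partner of GABPA, was also lower with QC6352 in Rh41 (-0.43 ± 0.13) and with the KDM4B hairpin (-0.62 ± 0.16). In these comparisons, too, its treated and control means were near background. Of 16 genes of mitochondrial transcription and replication 7 fell and 1 rose with QC6352 in each line (43.8% and 6.25%), beside the shares of all genes given above for Rh30 and Rh41. With the hairpin 1 fell and 3 rose (6.25% and 18.8%, beside 6.31% and 5.26% of all genes), TWNK, the mitochondrial DNA helicase, with a control mean near background, by 0.74 ± 0.12, TFB2M by 0.59 ± 0.11 and TFAM by 0.40 ± 0.12. With the KDM4C siRNA 0 genes of these 3 lists were called.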

How the data were processed

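Total RNA was hybridised to Clariom S arrays, per the labels' protocols. Each array's deposited column holds 1 log2 signal for every probe set. GCOS is the tool that the submitters' processing notes name, while no source used here gives its version, the genome build or the normalization. Of 24351 probe sets 17709 carried 1 gene symbol, matched by Entrez identifier to the current gene table; where a gene had several, the one with the highest mean was kept, which left 17687 genes. The 8 group means over all 20 arrays were estimated in R 4.3.3 by limma 3.58.1, using lmFit followed by eBayes, with 12 residual degrees of freedom. Benjamini-Hochberg adjustment ran over all genes, and a gene was called at an adjusted p under 0.05. Each difference is treated minus control, or Rh41 minus Rh30, with its standard error (SE). The fit was tested on simulated data.

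The members, the related gene lists and the rule for named genes were chosen with earlier results of these data known. Named are the complex II members, CYC1, the inhibitor, the tissue isoform pairs and near-copy symbols, the members called with the largest differences per complex and comparison, those called in both lines, the largest differences each way between lines and treatments, and the largest in each related list; further members were named after their values were seen. Alternatives were quantile normalization, centring of arrays, leaving out the lowest 40% of probe sets, eBayes with trend and robust, a model with no arrays beyond those compared, a block for the replicate number, the lowest-mean probe set, groups by sample name, and leaving out each array. Deviations of replicates of the same number were at most weakly correlated (-0.21 to 0.26), so the number was not taken to pair arrays. For QC6352 in Rh30 these correlations were all positive (0.06 to 0.26). Where replicates did not come from separate cultures, p-values cover technical spread only. Promoters came from RefSeq.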

Additional observations from a re-analysis of the deposited data

Results flagged for a closer look

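Among the 78 subunits 19 stand out because their response to QC6352 differed between the lines in a contrast of the responses, Rh41 minus Rh30, within the limma fit (adjusted p under 0.05 over all genes). In complex I the differences were 1.31 for NDUFV2, 0.82 for NDUFV3, 0.76 for NDUFS4, 0.50 for NDUFB1, 0.48 for NDUFB4, 0.47 for NDUFA6 and 0.42 for NDUFB5, each meaning a smaller fall, or none, in Rh41. They were -1.11 for NDUFC1, -0.89 for NDUFB10 and -0.66 for NDUFA2, which were called higher in Rh30 and not in Rh41. In complexes II and III they were 0.44 for SDHC, 0.92 for UQCRB, 0.41 for UQCRH and 0.36 for UQCRC2. In complexes IV and V they were 0.37 for COX7A2L, 0.69 for ATP5MC2, 0.54 for ATP5PO, 0.44 for ATP5PB and -0.44 for ATP5IF1. The Rh30 arrays of this contrast are among those whose labels conflict, and with groups by sample name 0 subunits were called in either direction.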

How the results depend on the processing

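The deposited values keep no scanner signal, so the array processing could not be varied, and members near background are measured less well. Groups by sample name gave 0 higher and 0 lower with QC6352 in Rh30, 0 and 0 in Rh41 and 5 lower with the hairpin. They gave 0 and 0 in the difference between lines, and 2 higher and 0 lower in the drug minus hairpin contrast. The Rh41 and hairpin arrays have the same group by title and by sample name, and their differences did not change (subunit medians -0.08 and -0.07 log2). For them only the spread that the fit shares over all arrays changed, and with it the p-values. A change of sign was counted only where the value was called in the main fit or in the alternative. Of 128 values of named subunits 15 turned their sign in this sense under that grouping, and 0 did under any other setting. With QC6352 in Rh30 these were ATP5PO (0.0925), COX6C (-0.13), COX8A (-0.15), NDUFB4 (0.0303), NDUFC1 (-0.22) and SDHC (0.0063). In the difference between lines they were ATP5IF1 (0.28), NDUFA2 (0.0148), NDUFS4 (-0.0326), NDUFV2 (-0.45) and NDUFV3 (-0.83). In the drug minus hairpin contrast they were ATP5PO (0.31), NDUFC1 (-0.24), NDUFV2 (0.26) and NDUFV3 (0.55). Which labels are right was not tested.

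EBayes with trend and robust called 10 subunits higher with QC6352 in Rh30, and 10 lower and 3 higher in Rh41. It called 17 lower with the KDM4B hairpin and 5 lower with the KDM4C siRNA. Leaving out the lowest 40% of probe sets, which tests fewer genes, gave 4 higher with QC6352 in Rh41 and 1 lower, UQCR10, with the KDM4C siRNA. The compared arrays alone gave 8 lower and 3 higher in Rh41 and 5 lower with the hairpin. For DMSO in Rh41 against Rh30, quantile normalization gave 16 higher, and centring gave 15 higher and 36 lower. The replicate block, with numbers not shown to pair the arrays, gave 9 lower with the hairpin and 9 positive differences between lines, against 4 higher and 23 lower with QC6352 in Rh30. For the siRNA the numbers deviated in opposite ways (correlation -0.21), and the crossed replicate block, chosen after seeing the data, called 0 higher and 0 lower.

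With 1 array left out, QC6352 in Rh30 gave 18 to 25 lower and 4 to 6 higher, and QC6352 in Rh41 gave 4 to 6 lower and 0 to 1 higher. The hairpin gave 6 to 11 lower and the KDM4C siRNA 0 to 12 lower and 0 to 1 higher, the 12 and the 1 without KDM4C siRNA array 1. The difference between lines gave 8 to 14 positive and 3 to 4 negative, lowest without QC6352 array 3 of Rh41. The drug minus hairpin contrast gave 8 to 10 positive and 7 to 14 negative, the 7 without KDM4B hairpin array 2. DMSO in Rh41 against Rh30 gave 24 to 27 higher and 18 to 22 lower.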

Other observations

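The mitochondrial ribosome makes the subunits encoded in mitochondrial DNA. Of 74 mitochondrial ribosomal protein genes 40 fell and 4 rose with QC6352 in Rh30 (median -0.27 log2), 14 fell and 3 rose in Rh41 (median -0.14), and 10 fell and 0 rose with the KDM4B hairpin (median -0.03). The share lower was 54.1% in Rh30, 18.9% in Rh41 and 13.5% with the hairpin, beside 16.5%, 8.8% and 6.31% of all genes and 32.1%, 6.41% and 17.9% of the respiratory subunits. MRPL58 fell by 2.82 ± 0.17 in Rh30 and fell by 1.61 ± 0.17 in Rh41, and MRPL24 had differences of -2.72 ± 0.15 in Rh30 and -1.31 ± 0.15 in Rh41. Their means in Rh30 with QC6352, 4.97 and 6.38 log2, were below the 95th percentile of the background probe sets on every array. For MRPL58 the Rh30 DMSO mean and both Rh41 means were near background as well. MRPL51 was at 10.24 log2 with the hairpin and 11.27 with the control hairpin (-1.03 ± 0.10, adjusted p = 2.09e-06). MRPL49 and MRPL33 rose by 0.66 and 0.59 with QC6352 in Rh30, MRPL33 at means near background in both groups. The shares of the lists were not tested against each other.

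Enzymes beside the chain were called in both directions, and the counts that follow stand beside 16.5% lower and 19.9% higher of all genes with QC6352 in Rh30 and 6.31% and 5.26% with the hairpin. Of 17 enzymes of the citric acid cycle and of pyruvate entry 6 fell and 5 rose with QC6352 in Rh30 (35.3% and 29.4%), with SUCLG2 at -1.53 ± 0.15 and OGDH at 1.15 ± 0.11, and 1 fell and 0 rose with the hairpin. Of 20 genes of coenzyme Q and electron carriers 7 fell and 6 rose with QC6352 in Rh30 (35% and 30%) and 0 fell and 1 rose with the hairpin. COQ2, which joins the tail to the coenzyme Q ring, fell by 1.70 ± 0.10 in Rh30 and fell by 0.95 ± 0.10 in Rh41, and COQ10A, a coenzyme Q binding protein, rose by 1.90 ± 0.11 and 0.84 ± 0.11. Of 9 oxygen-sensitive genes 2 fell and 3 rose with QC6352 in Rh30 (22.2% and 33.3%), with EGLN3 at -1.16 ± 0.14 and VEGFA at 1.04 ± 0.12, and 1 fell and 1 rose with the hairpin. Of 11 nucleotide carriers and channels 1 fell and 2 rose with QC6352 in Rh30 (9.09% and 18.2%), and 2 fell and 2 rose with the hairpin. SUCLG2, COQ2 and EGLN3 had means near background in Rh30 with QC6352, and COQ2 had one in Rh41 with QC6352 as well. SLC25A4, the ADP/ATP carrier of heart and muscle, was higher with QC6352 in both lines (0.85 ± 0.09 in Rh30, 0.44 ± 0.09 in Rh41) and lower with the hairpin (-0.80 ± 0.11).

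COXFA4L2, the oxygen-sensitive relative of a complex IV subunit formerly counted in complex I, moved in opposite directions in the lines. It was at 7.64, 7.57 and 7.60 log2 in Rh30 with QC6352, against 6.51, 6.57 and 6.15 with DMSO (1.19 ± 0.12, adjusted p = 1.63e-07). In Rh41 it was at 5.24, 5.08 and 5.48 with QC6352, against 6.12, 6.16 and 6.10 with DMSO (-0.86 ± 0.12, adjusted p = 3.47e-05). The difference of responses was -2.04 ± 0.17 (adjusted p = 9.50e-08), at levels close to background. COXFA4, its widely expressed counterpart, did not pass in either line (-0.05 and 0.09). The non-coding NDUFV1-DT was near background in all 8 groups and was not called with any treatment.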
